A study of Homo sapiens with 12 samples.

Results

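The regions described here are the m7G peak regions of membrane traffic genes, 143 of the 9958 regions in the deposited table. A region was taken where it overlapped the GRCh38 RefSeq body of a protein-coding gene whose symbol begins with RAB, ARF, SNX, STX or VAMP and a digit, with VPS or TRAPPC, with COP and A, B, E, G or Z, or with AP1, AP2 or AP3 and B, D, G, M or S. Of the 210 genes that meet this rule, 82 had a region. The cells were THP-1, a human monocytic leukemia line, made adherent with the phorbol ester PMA at 100 ng/ml for 48 h in every group, and polyadenylated RNA was used throughout. KD carries a short hairpin against METTL1, the catalytic subunit of an m7G methyltransferase. NC is taken as the control from its library names; the series text calls the cells it compares with wildtype, and whether NC carries a control hairpin is not given in the sources used here. IP is the m7G immunoprecipitate, and IN is read here as the matching input. The design crosses both genotypes with both fractions, with 3 libraries for each combination and 12 in all. Nothing in the labels ties the libraries to separate cultures, so p-values measure only the spread between these libraries, which may be technical. Whether each group is 1 clone or 1 infected population is not given in the sources used here.

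Membrane traffic moves proteins and lipids between organelles in vesicles. RAB and ARF proteins are small GTPases that mark each membrane and recruit coats and tethers. Adaptor complexes and coatomer build the coats and pick the cargo, VPS proteins, sorting nexins and TRAPP subunits sort and tether, and syntaxins and VAMPs are the SNAREs that drive fusion. In macrophages these proteins serve phagocytosis, antigen handling and lysosome delivery. 7-methylguanosine caps every mRNA and is also reported inside mRNAs, and an antibody to it can recover either.

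Reads in peak regions came to 907024 to 1105477 in the IN libraries and 1476384 to 1888972 in the IP libraries, and IP over input therefore sets a region against the average peak region. No region (0) overlapped METTL1, so the knockdown was not measured here. The labelled cell type was checked on 27 macrophage and monocyte genes, of which 17 had a region. Their summed CPM (counts scaled to a common total of reads in tested regions, with TMM factors) was 4853 to 5089.9 in NC IN, 9965 to 10712 in KD IN, 3011 to 3470.1 in NC IP and 5774 to 6076 in KD IP. FTH1 alone held 2653 CPM of it on average in NC IN and 5813 in KD IN, and CPVL went the other way, from 24.5 to 0.319 CPM. No region was seen for PTPRC, CD14, CSF1R, TYROBP, FCER1G, CTSS, LCP1, CORO1A, CD36 or PLIN2. Of 23 genes listed as HEK293-like, neuronal or epithelial, 18 had a region. Their summed CPM was 10125 to 10735 in NC IN against 1203 to 1404 in KD IN, and 7831 to 8855 in NC IP against 887 to 959 in KD IP. NEFM alone held 5483 CPM of this sum on average in NC IN and 1.59 in KD IN, and TCEAL9 held 2242 and 987. In KD IN, 9 of these 18 were at 0 reads (HOXC8, LIN28B, KRT18, FLNA, PNMA8A, MAP9, AKAP12, CCDC8 and P3H3). NEFH went the other way, at 137 ± 11.2 (SD, n = 3) in NC IN and 296 ± 28.1 in KD IN. PPL, read at a low level, did not fall, at 5.61 ± 4.93 in NC IN and 6.45 ± 2.35 in KD IN. Of 8 fibroblast genes 3 had a region (at most 38.5 CPM summed in any library), and of 7 erythroid and 8 lymphoid genes none (0) had one. The lists were chosen with earlier results of these data known. The gap between NC and KD in them is therefore no independent check of cell type. The NC and KD libraries differed in the macrophage and HEK293-like lists, and the part of this in any KD against NC difference below was not tested. In bulk RNA, fewer cells of a type and less RNA per cell cannot be told apart.

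The start windows of 6 member genes are shown because a peak covers the first 30 bases from the start that the RefSeq promoter table gives for each and because the 6 span the results: ARF6, RAB5A and STX16 had more reads in IP than in input in at least KD, and AP1B1, AP2S1 and STX10 had fewer in both groups. Capitals mark the first 30 bases from the annotated start, and lower case the 30 bases before it. The sequences are from RefSeq (GRCh38.p14), 5′ to 3′ on the strand of the gene. The windows are chr14:49893052-49893111 (+) for ARF6, chr3:19947067-19947126 (+) for RAB5A, chr20:58651253-58651312 (+) for STX16, chr22:29388541-29388600 (-) for AP1B1, chr19:46850285-46850344 (-) for AP2S1 and chr19:13150346-13150405 (-) for STX10.
ARF6: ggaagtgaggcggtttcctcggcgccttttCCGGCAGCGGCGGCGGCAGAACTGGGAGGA
RAB5A: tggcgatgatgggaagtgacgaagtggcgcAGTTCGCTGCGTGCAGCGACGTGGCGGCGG
STX16: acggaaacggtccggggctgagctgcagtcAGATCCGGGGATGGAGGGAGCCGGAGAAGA
AP1B1: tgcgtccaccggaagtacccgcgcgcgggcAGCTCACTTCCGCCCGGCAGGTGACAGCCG
AP2S1: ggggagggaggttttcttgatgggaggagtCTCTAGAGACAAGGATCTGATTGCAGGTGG
STX10: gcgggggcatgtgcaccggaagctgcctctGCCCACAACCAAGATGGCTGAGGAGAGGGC

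The GC content of the capitals was 76.7% in ARF6, 73.3% in RAB5A, 63.3% in STX16, 70% in AP1B1, 50% in AP2S1 and 63.3% in STX10. A start window was found for 65 of the 82 member genes with a region, and in 25 of these a peak held all 30 first bases. Those 25 had a median GC of 73.3% (50% to 86.7%) there, the other 40 had 70%, and 15842 coding genes had 63.3%. The first base was G or A in 20 of the 25, and in 87% of all coding genes. That start is the outer end of the gene body in 21 of the 25. In AP2S1 it lies 532 bases inside the body, and in RAB43, STX18 and STX7 it also lies inside it. These are descriptions of the annotated starts, which need not be the starts used in these cells.

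Of the member regions, 65 (45.5%, exact binomial 95% interval 37.1% to 54%) lay in the first of 10 equal parts of the gene body and 48 (33.6%, 25.9% to 41.9%) in the last. Over 9060 regions, these members and all other regions that lie in 1 coding gene, the shares were 33.4% and 28.4%. Both ends together held 113 of the 143 members. The regions measured 61 to 792 bases with a median of 181, against 182 over all regions. Of them 115 lay on the strand of the gene and 3 opposite to it (2 in ARF5 and 1 in RAB2B), and for 25 the strand of the gene was unknown; there the place was read along the strand of the peak. Overlap with a second coding gene was seen in 16, among them the AP1B1 region (RFPL1) and the ARF3 regions in the ninth part of the gene (FKBP11), and their reads cannot be given to 1 gene.

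**Figure D1:**
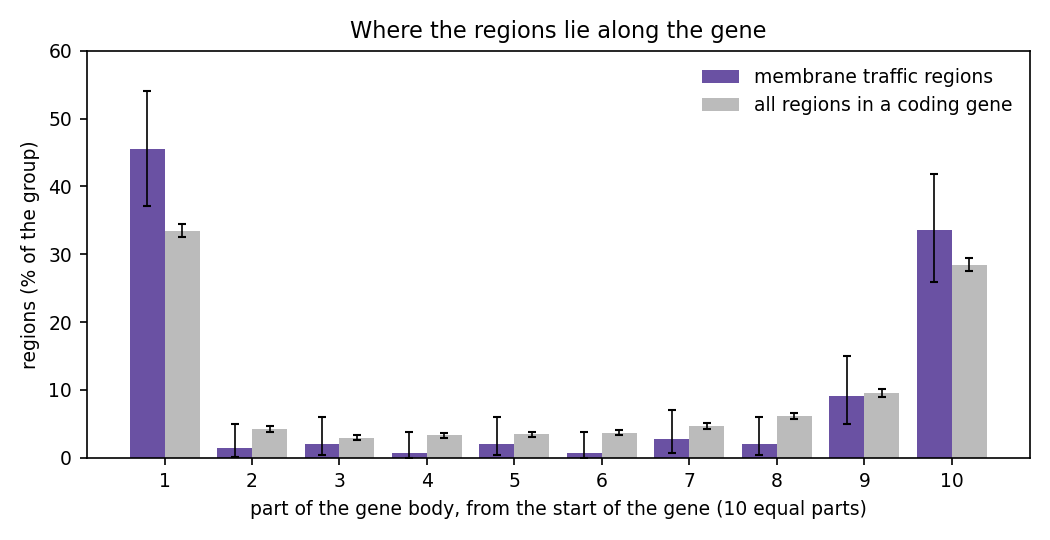
Share of regions (%) in each of 10 equal parts of the gene body, from its start, for the 143 membrane traffic regions and for 9060 regions. The 9060 are the membrane traffic regions and all other regions in 1 coding gene. Bars are shares and error bars exact binomial 95% intervals, which treat regions as independent although overlapping regions share reads. The first and last parts hold 45.5% and 33.6% of the membrane traffic regions.

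By family, the RAB group had 59 regions in 33 of 74 genes, sorting nexins 19 in 11 of 30, adaptor subunits 18 in 11 of 18, syntaxins 15 in 8 of 16, ARF 12 in 3 of 5, VPS 11 in 9 of 35, coatomer 5 in 3 of 8, TRAPP 3 in 3 of 17 and VAMP 1 in 1 of 7. The authors called peaks per group: 78 member regions came from the KD set and 65 from the NC set. With 1 base of overlap on the same strand as the criterion, 64 of the 143 (44.8%, 36.4% to 53.3%) had a partner in the other set, 42.3% of the KD peaks and 47.7% of the NC peaks, against 38.9% of all regions. Of the genes, 34 had peaks in both sets, 27 in KD alone and 21 in NC alone. A peak in 1 set alone is no difference in reads: AP3B1 had a peak in NC alone and RAB3GAP1 in KD alone, and both were read deeply in all 12 libraries. In the authors' deposited table the fold enrichment of the member peaks ran from 1.24 to 41.9, with a median of 7.4. Genes called lower in IP below stood at both ends, AP3B1 at 1.24 and a STX10 peak at 41.9. AP2S1, also called lower, had 3.85 and 5.85. Every region is a peak in the authors' table, so lower in IP below means lower relative to the average peak region.

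Of the 143 regions, 80 passed the filter on low counts and were tested, in 45 genes. Partner peaks of the 2 sets cover the same reads, so these 80 are 50 separate places. The 63 untested regions held 5 to 90 reads over the 12 libraries (median 28). They include every region of 37 genes. Among these were, in the RAB group, RAB11A, RAB11FIP1, RAB11FIP2, RAB14, RAB15, RAB22A, RAB33A, RAB33B, RAB35, RAB37, RAB3D, RAB3GAP2, RAB3IP, RAB6B, RAB7B and RAB8A. The sorting nexins SNX1, SNX5, SNX11, SNX12, SNX13, SNX20, SNX24 and SNX33, and the VPS genes VPS28, VPS37C, VPS39, VPS4A and VPS4B, were also untested. So were STX18, AP1G1, AP1M1, AP3M2, COPG2, TRAPPC2B and TRAPPC5. Their depth does not allow a statement on change.

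Per kilobase of region, the mean level over the 12 libraries ran from 6.77 to 7948 CPM per kb among the tested members. RAB13 was at the top at 7948 CPM per kb. AP3B1 followed at 6236, RAB7A at 6198, SNX3 at 2604, RAB3GAP1 at 2211 and AP1B1 at 973. RAB13 and RAB7A dominated the reads of the whole group. Counting overlapping regions once, the members summed to 6650 ± 431 CPM (SD, n = 3) in NC IN, 6837 ± 325 in NC IP, 9469 ± 368 in KD IN and 10945 ± 675 in KD IP. Without RAB13 and RAB7A the sums were 3353 ± 102, 3049.8 ± 63.9, 4076 ± 253 and 3792 ± 98.9.

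**Figure D2:**
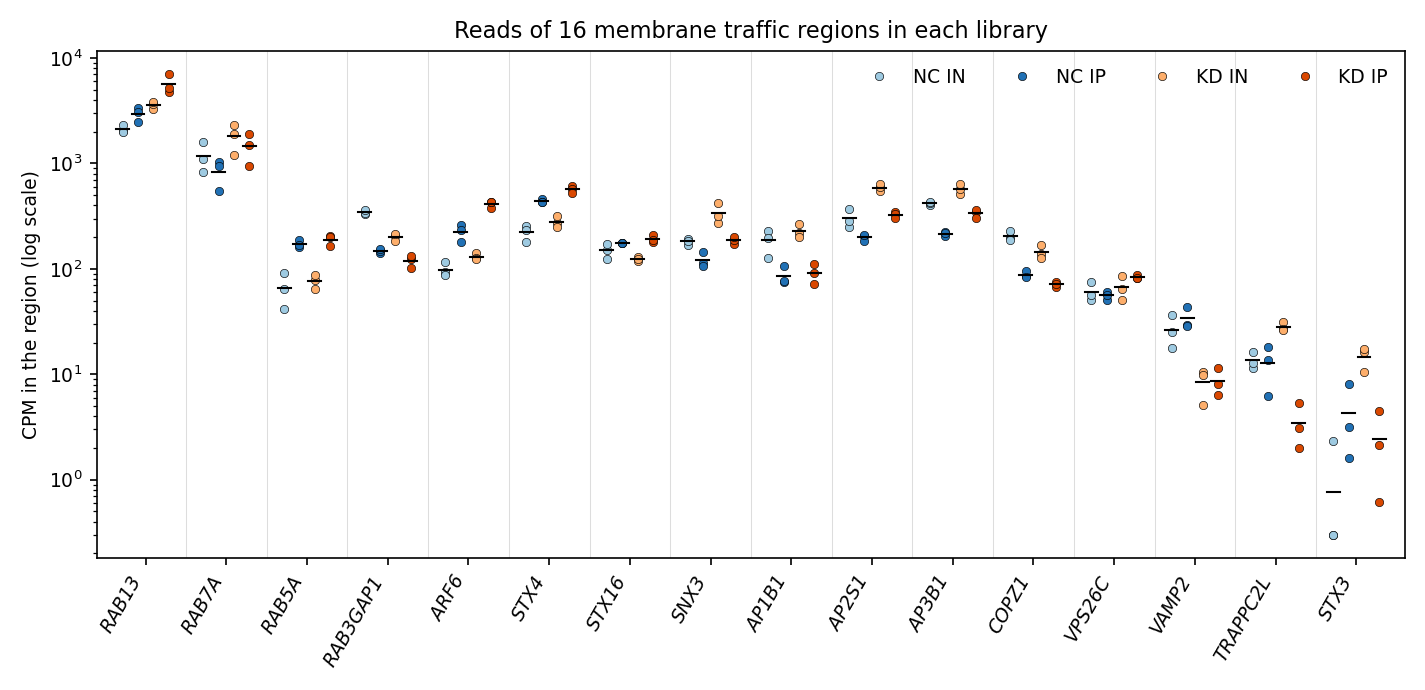
CPM (log axis) of 16 membrane traffic regions in each of the 12 libraries; points are libraries, black bars are group means, 1 region per gene is shown (the one with the highest mean), and values of 0, which occur in STX3, are drawn at the foot of the panel. RAB13, ARF6, RAB5A and STX4 are higher in IP than in IN in both groups, and RAB3GAP1, AP1B1, AP3B1 and COPZ1 are lower.

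The first comparison asked which member regions the antibody recovered above or below the average region, in control cells. In NC, 18 of the 80 tested members were higher in IP than in input and 12 lower (edgeR quasi-likelihood F test, Benjamini-Hochberg adjusted p under 0.05 over all 5113 tested regions). That is 37.5% of the members, against a background of 46.7% of all regions. Over all regions, 22.7% were called higher and 24% lower. The members' median log2 value was 0.33 and that of all regions 0.13. The higher calls lay in 9 genes: the GTPases ARF3, ARF6, RAB5A, RAB5C, RAB13 and RAB40C, the SNARE STX4, the clathrin adaptor subunit AP2M1 and the GARP tether subunit VPS54. The lower calls lay in 10: the adaptor subunits AP1B1, AP1S2, AP2B1, AP2S1 and AP3B1, coatomer subunit COPZ1, RAB11FIP5, RAB3GAP1, SNX3 and STX10. Libraries of IP and input did not overlap in 39 of the 80 members, 57.8% of all regions doing so. With library size alone in place of TMM scaling, all regions had a median of 0.42 instead of 0.13 and the split among members became 26 higher and 6 lower.

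In KD the same comparison called 17 members higher and 15 lower, 40% of the 80 against a background of 44.9% (23.5% of all regions higher and 21.4% lower). The medians were 0.36 in the members and 0.23 in all regions. The genes called higher were ARF5, ARF6, RAB13, RAB40C, RAB5A, SNX8, STX16 and STX4. Those called lower were AP1B1, AP2B1, AP2S1, AP3B1, COPZ1, RAB1A, RAB3GAP1, SNX3, STX10, STX3, STX7 and TRAPPC2L. Libraries did not overlap in 45 members, against 56.6% of all regions. Under the same change of scaling, all regions had a median of 0.4 instead of 0.23 and the members split 27 higher to 12 lower. Between the groups, 10 regions in ARF6, RAB13, RAB40C, RAB5A and STX4 were called higher in both, 10 regions in AP1B1, AP2B1, AP2S1, AP3B1, COPZ1, RAB3GAP1, SNX3 and STX10 were called lower in both, and none (0) was called in opposite directions. Over all tested regions 15.9% were called higher in both and 17.6% lower in both, against 12.5% and 12.5% of the members. The sign was the same in 80% of the members (64 of 80) and in 80.9% of all regions.

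**Figure D3:**
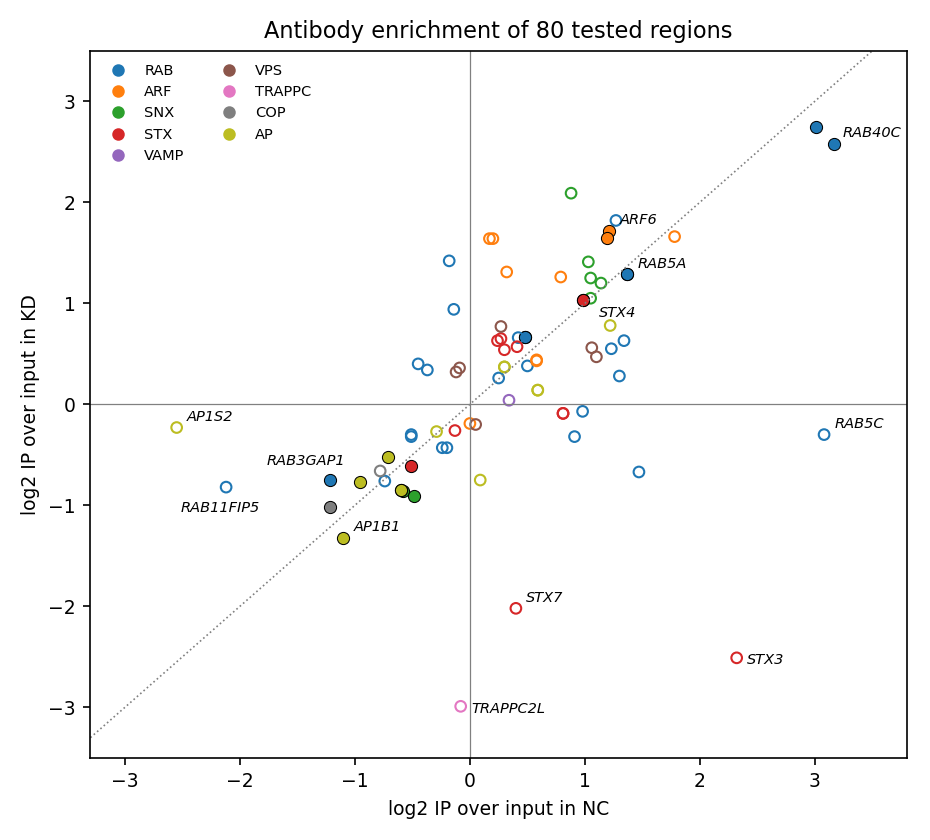
log2 IP over input in NC (x) against KD (y) for the 80 tested regions, coloured by family; filled points passed the test in both groups, open points did not, and the dotted line marks equal values. Filled points of ARF6, RAB13, RAB40C, RAB5A and STX4 lie at the upper right and those of AP1B1, AP2B1, AP2S1, AP3B1, COPZ1, RAB3GAP1, SNX3 and STX10 at the lower left, and TRAPPC2L, STX3 and STX7 lie below the line.

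Of the regions higher in IP, those of ARF6 had the smallest p in both groups. ARF6 acts at the plasma membrane and in endosome recycling, including at the phagocytic cup. Its region at chr14:49893078-49893766 (+), in the first part of the gene and over the start window shown above, held 93.2, 111 and 86.7 CPM in the NC IN libraries and 258, 179 and 232 in NC IP. In KD it held 134, 115 and 124 CPM in IN and 376, 427 and 425 in IP. All IP libraries lay above all input libraries in both groups. The log2 IP over input was 1.21 ± 0.16 (SE, adjusted p = 7e-07) in NC and 1.72 ± 0.15 (adjusted p = 1.5e-09) in KD. The difference between these was 0.51 ± 0.22, which missed the threshold (adjusted p = 0.36).

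RAB5A, the GTPase of early endosomes, had its region at the start of the gene, at chr3:19947096-19947425 (+). It held 92.2, 41.7 and 64.7 CPM in NC IN against 189, 161 and 169 in NC IP, and 79.2, 87.9 and 64.2 in KD IN against 165, 203 and 199 in KD IP. IP and input did not overlap in either group. The log2 value was 1.37 ± 0.2 (SE, adjusted p = 5.2e-06) in NC and 1.29 ± 0.2 (adjusted p = 8.6e-06) in KD.

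RAB13, a GTPase of recycling and surface delivery whose mRNA is known to gather in cell protrusions, carried its region at the other end of the gene, in the last part, at chr1:153981765-153982245 (-). Its CPM was 2018, 1999 and 2310.5 in NC IN, 3330.4, 2462 and 3060.4 in NC IP, 3259, 3688 and 3799 in KD IN and 4784, 5215 and 7095 in KD IP. IP and input did not overlap in either group. The log2 IP over input was 0.48 ± 0.13 (SE, adjusted p = 0.0033) in NC and 0.67 ± 0.13 (adjusted p = 0.00014) in KD.

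STX4, a plasma membrane syntaxin, was read in the second part of its gene, at chr16:31033502-31034269 (+). Its region held 180.2, 258 and 235 CPM in NC IN and 457, 433 and 429 in NC IP. In KD it held 273, 315 and 249 in IN and 612, 571 and 528 in IP. All IP libraries lay above all input libraries, with log2 values of 0.98 ± 0.13 (SE, adjusted p = 1.2e-06) and 1.03 ± 0.13 (adjusted p = 4.5e-07). STX16, a syntaxin of the trans-Golgi network, was called in KD alone. At chr20:58651271-58652048 (+) it held 124, 152 and 173 CPM in NC IN, 176, 175 and 177 in NC IP, 119, 129 and 125 in KD IN and 208, 179 and 189 in KD IP. The log2 value was 0.24 ± 0.15 (adjusted p = 0.19) in NC and 0.63 ± 0.15 (adjusted p = 0.0012) in KD, and the difference of 0.39 ± 0.21 missed the threshold (adjusted p = 0.46). The NC value passed with library size alone (0.53, adjusted p = 0.0047) and without NC IN replicate 3 (0.42, adjusted p = 0.041).

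Of the 13 tested adaptor regions, 6 were called lower and 2 higher in NC, and 6 lower and none (0) higher in KD, against 24% and 21.4% of all regions called lower. The AP2S1 calls, and likewise the AP2M1 calls, are partner peaks that cover the same reads. The calls of AP1S2 and AP2M1 in NC and of AP2B1 in KD were lost under some settings, as given below. AP3B1 is the large beta subunit of AP-3, which sorts cargo to lysosomes and related organelles. Its region of 62 bases at chr5:78116142-78116203 (-), in the seventh part of the gene, held 404, 421 and 435 CPM in NC IN and 204, 226 and 217 in NC IP. In KD it held 519, 572 and 634 in IN and 347, 360 and 301 in IP. The log2 IP over input was -0.96 ± 0.12 (SE, adjusted p = 2.8e-07) in NC and -0.77 ± 0.11 (adjusted p = 4.7e-06) in KD.

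AP2S1, the small subunit of the AP-2 adaptor of clathrin endocytosis, was read in the first part of the gene body at chr19:46850179-46850787 (-). It held 372, 249 and 282 CPM in NC IN, 207, 182 and 208 in NC IP, 544, 595 and 635 in KD IN and 346, 329 and 306 in KD IP. Every IP library lay below every input library of its group. The log2 value was -0.85 ± 0.13 (SE, adjusted p = 7e-06) in KD. In NC it was -0.6 ± 0.14 (adjusted p = 0.00076), which became -0.31 (adjusted p = 0.075) with library size alone. AP1B1, the beta subunit of the AP-1 adaptor of the trans-Golgi network and endosomes, held 128, 231 and 198 CPM in NC IN against 74.8, 106 and 77.4 in NC IP, and 265, 218 and 202 in KD IN against 111, 91.6 and 71.4 in KD IP. Its log2 values were -1.1 ± 0.21 (adjusted p = 9.4e-05) and -1.32 ± 0.2 (adjusted p = 7.9e-06). The AP1B1 region, at chr22:29388432-29388583 (-), also covers the start of its gene. A peak at the start thus went with higher CPM in IP than in input in some members and with lower CPM in others.

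COPZ1, the zeta subunit of the coatomer coat of Golgi vesicles, held 202, 186 and 230 CPM in NC IN and 84.9, 95.9 and 84.3 in NC IP, then 139, 126 and 169.6 in KD IN and 75.8, 66.7 and 71.4 in KD IP. The log2 value was -1.22 ± 0.16 (SE, adjusted p = 8.2e-07) in NC and -1.02 ± 0.16 (adjusted p = 1.5e-05) in KD. The other tested coatomer subunit, COPB1, had values of -0.78 ± 0.33 and -0.66 ± 0.31 that missed the threshold (adjusted p = 0.051 and 0.083).

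RAB3GAP1, the catalytic subunit of a GTPase-activating protein for RAB3 and an exchange factor for RAB18, held 335, 339 and 362 CPM in NC IN against 142, 148 and 155 in NC IP. In KD it held 205, 185 and 213 in IN and 124, 132 and 101 in IP. Its region is 92 bases at chr2:135135623-135135714 (+), in the seventh part of the gene. The log2 value was -1.22 ± 0.13 (SE, adjusted p = 6.1e-08) in NC and -0.75 ± 0.14 (adjusted p = 7.8e-05) in KD. Input was lower in KD than in NC without overlap. In IP the KD libraries also lay below the NC libraries, but the log2 difference of -0.31 missed the threshold (adjusted p = 0.067), and passed in DESeq2 (-0.39, adjusted p = 0.014).

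SNX3, a sorting nexin that works with retromer on early endosomes, held 194, 168 and 184 CPM in NC IN, 115, 107 and 144 in NC IP, 274, 424 and 316 in KD IN and 172, 189 and 199 in KD IP, at chr6:108260826-108261036 (-). The log2 IP over input was -0.86 ± 0.15 (SE, adjusted p = 6e-05) in KD. In NC it was -0.58 ± 0.16 (adjusted p = 0.0053), and -0.29 (adjusted p = 0.16) with library size alone. STX10, a syntaxin of the trans-Golgi network, held 168, 154 and 158 CPM in NC IN, 105, 101 and 131 in NC IP, 191, 228 and 248 in KD IN and 159.5, 135 and 141 in KD IP. Its log2 value was -0.61 ± 0.15 (adjusted p = 0.0015) in KD and -0.51 ± 0.15 (adjusted p = 0.0089) in NC. The NC call was lost without NC IN replicate 1 (-0.42, adjusted p = 0.058), without NC IP replicate 2 (-0.43, adjusted p = 0.054), and with library size alone (-0.22, adjusted p = 0.25).

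Several calls rested on few reads or on 1 library. Some such regions passed the filter on low counts only through the group where they are high, which favours a call in that direction. RAB40C passed only because of its IP libraries. So did the SNX8 and ARF5 regions and the ARF3 region called in the ninth part, all given below. STX3 and the short RAB5C region passed only because of KD libraries. AP1S2, a small subunit of AP-1, was called lower in NC (-2.55 ± 0.72, SE, adjusted p = 0.0055), with 90.1, 16.4 and 1.16 CPM in NC IN and 9.02, 3.11 and 6.29 in NC IP. Without NC IN replicate 1 the value was -0.39 (adjusted p = 0.72). RAB40C, a RAB with a SOCS box that serves ubiquitin ligases, was called higher in both groups. It had reads in 1 of 3 NC IN libraries (3.79 CPM), 15.9, 9.96 and 7.55 CPM in NC IP, 1.02, 0 and 5.44 in KD IN and 11.2, 16.4 and 10.6 in KD IP. The ratio in NC was 9.94 with a counting interval of 3.24 to 49.6. The log2 value of 2.58 in KD ran to 2.23 (adjusted p = 0.054), 1.97 (0.069) and 4.42 (0.0032) without KD IN replicates 1, 2 and 3, and to 2.36 (0.055) without KD IP replicate 2. That of 3.17 in NC ran to 7 (0.0017) without NC IN replicate 2.

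Weaker calls of the same kind were AP2M1 in NC (0.59 ± 0.24, SE, adjusted p = 0.043), lost when NC IN replicate 2 (0.47, adjusted p = 0.14), NC IN replicate 3 (0.65, 0.059) or NC IP replicate 2 (0.4, 0.21) was left out. The ARF3 region at the gene's start, ARF3 being a Golgi ARF, had 0.58 ± 0.21 in NC (adjusted p = 0.026) and lost the call without replicate 1 of NC IN (0.44, 0.11) or of NC IP (0.48, 0.1). An ARF3 region in the ninth part, which FKBP11 also covers, had 1.78 ± 0.67 in NC (adjusted p = 0.032) and kept the call without NC IP replicate 2 alone among the 6 NC libraries, at 1.59 to 1.91 without the others. SNX8, a membrane-bending sorting nexin, had 2.09 ± 0.71 in KD (adjusted p = 0.019), and 2.99, 1.51 and 1.7 (adjusted p = 0.012, 0.081 and 0.1) without KD IN replicate 2, KD IN replicate 3 and KD IP replicate 2. ARF5, another Golgi ARF, had 1.64 ± 0.57 in KD (adjusted p = 0.023) and kept the call without KD IN replicate 3 or KD IP replicate 1 alone among its 6 KD libraries, at 1.47 to 1.64 without the others. The VPS54 call in NC (1.1 ± 0.4, adjusted p = 0.027) was lost without NC IN replicate 2 or 3 (0.9 and 0.98) or NC IP replicate 1 or 2 (0.91 and 1.07), and was 1.71 without NC IN replicate 1.

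The short RAB5C region, in the last part of the gene of this early endosome RAB, was called higher in NC at 3.08 ± 1.15 (SE, adjusted p = 0.031). It lost the call without NC IN replicate 1 (2.58, 0.11) or 3 (2.65, 0.095), and was 5.51 without NC IN replicate 2. RAB1A, a GTPase of transport from the endoplasmic reticulum to the Golgi, was called lower in KD at -0.43 ± 0.17 (adjusted p = 0.046). That call was lost when KD IN replicate 2 (-0.34, 0.17) was left out, and likewise for KD IP replicate 2 (-0.33, 0.19), KD IP replicate 3 (-0.37, 0.13) and any 1 of the 3 NC IP libraries (-0.42 to -0.41, 0.058 to 0.067). AP2B1, the beta subunit of AP-2, was called lower in KD in its last part at -0.52 ± 0.18 (adjusted p = 0.023), lost without KD IP replicate 2 (-0.42, 0.11), with library size alone (-0.35, 0.12) and with no filter (-0.41, 0.12). Its region at the start of the gene was called lower in KD at -0.75 ± 0.28 (adjusted p = 0.032), lost when KD IN replicate 3 (-0.63, 0.098) was left out, likewise for KD IP replicates 2 (-0.72, 0.083) and 3 (-0.64, 0.11), with library size alone (-0.58, 0.092) and with no filter (-0.63, 0.13). STX7, a late endosome syntaxin, had -2.02 ± 0.61 in KD (adjusted p = 0.0092), lost without KD IN replicate 3 (-1.66, 0.053) and at the threshold without KD IP replicate 2 (-1.8, 0.05). STX3, a plasma membrane syntaxin, had -2.51 ± 0.75 in KD (adjusted p = 0.0083), and -3.28 without KD IP replicate 2.
RAB11FIP5, an effector of RAB11 in recycling, was lower in NC at -2.12 ± 0.5 (adjusted p = 0.0013), from 12.6, 22.7 and 15 CPM in IN to 3.18, 3.74 and 4.41 in IP.

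By place in the gene, the first part of the body held 51 tested members, 12 higher and 8 lower in NC and 10 higher and 9 lower in KD. Over all 1946 regions there, 570 were higher and 293 lower in NC, and 569 and 278 in KD. In the last part 18 members were tested, 3 higher and 1 lower in NC and 5 higher and 2 lower in KD, against 171 higher and 259 lower of 985 regions in NC, and 189 and 239 in KD. The median log2 value of the members in NC was 0.41 in the first part and 0.28 in the last, against 0.49 and -0.09 over all regions.

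The second question was whether input, which follows RNA abundance, differed between KD and NC. In input, 17 of the 80 members were higher in KD and 4 lower, 26.2% of the members against a background of 39.8% (17.9% of all regions higher and 21.9% lower). The members' share called was below the background. The direction was uneven, with 81% of the calls higher against 45.1% over all regions, and the medians were 0.32 and -0.01. That share counts partner peaks that cover the same reads, and by gene 12 were higher and 4 lower. Libraries of the groups did not overlap in 31 members, against 44.8% of all regions. The genes higher in KD were AP1S2, AP2M1, AP2S1, AP3B1, RAB11B, RAB13, RAB5C, RAB7A, SNX3, STX10, STX3 and STX7, and those lower were AP2B1, COPZ1, RAB3GAP1 and VAMP2. The macrophage marker sum, of which FTH1 is the largest share, went the same way between these libraries, at 4853 to 5089.9 CPM in NC IN and 9965 to 10712 in KD IN, and the HEK293-like sum the other way, at 10125 to 10735 and 1203 to 1404. The part of either in these calls was not tested.

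AP2S1 had the smallest p, with 372, 249 and 282 CPM in NC IN and 544, 595 and 635 in KD IN. All KD libraries lay above all NC libraries, and the log2 value was 0.97 ± 0.13 (SE, adjusted p = 2.1e-06). RAB13 rose from 1999 to 2310.5 CPM in NC IN to 3259 to 3799 in KD IN (0.76 ± 0.13, adjusted p = 3.8e-05), and SNX3 from 168 to 194 to 274 to 424 (0.9 ± 0.16, adjusted p = 7.4e-05). AP3B1 rose from 404 to 435 CPM to 519 to 634 (0.45 ± 0.11, adjusted p = 0.0027). AP2M1, the cargo-binding subunit of AP-2, rose from 51.3, 30.3 and 41.6 CPM to 77.2, 76.5 and 64.2 (0.81 ± 0.24, adjusted p = 0.0096). AP2B1, of the same complex, fell by 0.48 in its last part, a call lost without any 1 of the 6 input libraries (-0.5 to -0.34, adjusted p = 0.052 to 0.2). Its region at the start of the gene was not called in input, with 35, 34 and 43 reads in NC IN and 35, 33 and 42 in KD IN.

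RAB7A, the GTPase of late endosomes and lysosomes, varied between replicates enough for its groups to overlap. Its region in the last part of the gene, at chr3:128813380-128813620 (+), held 834, 1616 and 1115 CPM in NC IN, 2339.8, 1895 and 1197 in KD IN, 544, 1025 and 941 in NC IP and 1907, 1508 and 949.9 in KD IP. The input groups overlapped, and so did the IP groups. The log2 KD over NC was 0.61 ± 0.24 (SE, adjusted p = 0.049) in input, and the call was lost without KD IN replicate 1 (0.45, adjusted p = 0.16), KD IN replicate 2 (0.61, 0.1), NC IN replicate 1 (0.46, 0.16) or NC IN replicate 3 (0.62, 0.088), and without KD IP replicate 2 (0.62, 0.054) or NC IP replicate 3 (0.61, 0.062). DESeq2 gave an adjusted p of 0.19. In IP it was 0.8 ± 0.24 (adjusted p = 0.0098), lost without replicate 1 of KD IP (0.56, 0.097) or of NC IP (0.57, 0.073) and in DESeq2 (0.71, 0.12).

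STX10 rose in input from 168, 154 and 158 CPM in NC to 191, 228 and 248 in KD, without overlap (0.47 ± 0.15, SE, adjusted p = 0.016). Higher calls in STX3, RAB5C, RAB11B and STX7 rested on few reads. STX3 had reads in 1 of 3 NC IN libraries (2.31 CPM) and 16.2, 10.5 and 17.4 CPM in KD IN, a ratio of 19 with a counting interval of 4.96 to 162. Its log2 value of 4.1 was 7.38 without NC IN replicate 3. The short RAB5C region had 1.26 CPM in 1 NC IN library and 9.14, 10.5 and 4.35 in KD IN, a ratio of 21.2 (3.46 to 874). Its log2 value of 4.09 was 6.53 without NC IN replicate 2. STX3 and this RAB5C region passed the filter on low counts only because of KD libraries, which favours a call higher in KD. RAB11B, a GTPase of recycling endosomes, held 4.19, 3.79 and 0 CPM in NC IN and 17.3, 12.4 and 18.5 in KD IN (2.54 ± 0.73, adjusted p = 0.0072). Without KD libraries the RAB11B region would not have passed the filter either, which favours a call higher in KD. STX7 held 3.14, 1.26 and 11.6 against 16.2, 14.3 and 30.4 CPM (1.9 ± 0.66, adjusted p = 0.025). It lost the call without KD IN replicate 3 (1.57, 0.095), NC IN replicate 1 (1.66, 0.076) or NC IN replicate 2 (1.52, 0.083), and was 3.15 without NC IN replicate 3.

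Of the falls, RAB3GAP1 went from 335 to 362 CPM in NC IN to 185 to 213 in KD IN, a log2 change of -0.78 ± 0.14 (SE, adjusted p = 5.2e-05). VAMP2, the vesicle SNARE synaptobrevin of regulated secretion, went from 36.7, 17.7 and 25.4 CPM to 5.08, 10.5 and 9.79 (-1.65 ± 0.46, adjusted p = 0.0059). Neither overlapped between groups. COPZ1 fell by 0.51 ± 0.16 (adjusted p = 0.013), and lost the call without KD IN replicate 1 (-0.42, 0.074), KD IN replicate 2 (-0.39, 0.087) or NC IN replicate 3 (-0.37, 0.1).

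**Figure D4:**
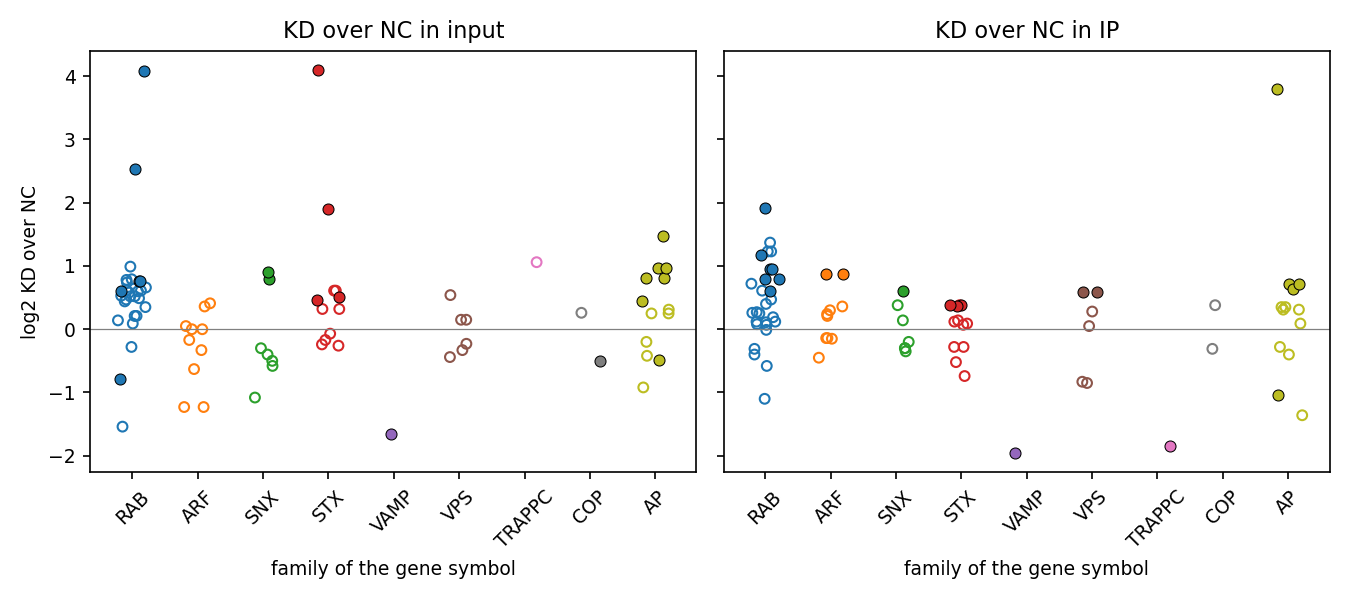
log2 KD over NC of the 80 tested regions in input (left) and in IP (right), by family; filled points passed the test, open points did not, and points are spread sideways only for legibility. Filled points lie mostly above 0 in both panels, 17 of 21 in input and 19 of 22 in IP.

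In IP, 19 of the 80 members were higher in KD and 3 lower, 27.5% against a background of 41% (20.9% of all regions higher and 20.1% lower), with medians of 0.22 and 0.05. Libraries did not overlap in 34 members, against 57.9% of all regions. The count of 22 fell to 13 without KD IP replicate 1 and to 14 without NC IP replicate 1. The genes higher in KD were AP1S2, AP2S1, AP3B1, ARF6, RAB11FIP5, RAB12, RAB13, RAB5C, RAB7A, SNX3, STX10, STX4 and VPS26C, and those lower were AP2B1, TRAPPC2L and VAMP2. In IP and in input alike, 9 regions were called higher (in AP1S2, AP2S1, AP3B1, RAB13, RAB7A, SNX3 and STX10) and 1 lower (VAMP2), which is 11.2% and 1.25% of the members against 13.2% and 15.5% of all regions. The marker sums again moved with the groups, the macrophage list at 3011 to 3470.1 CPM in NC IP and 5774 to 6076 in KD IP, and the HEK293-like list at 7831 to 8855 and 887 to 959; their part was not tested.

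AP1S2 had the largest rise, from 9.02, 3.11 and 6.29 CPM in NC IP to 69.4, 118 and 76.4 in KD IP, a log2 value of 3.8 ± 0.64 (SE, adjusted p = 3.2e-05). In input the same region rose by 1.48 ± 0.55 (adjusted p = 0.036), a call lost without KD IN replicate 2 (1.05, 0.2), KD IN replicate 3 (1.48, 0.058), NC IN replicate 2 (1.19, 0.1), NC IN replicate 3 (0.96, 0.11) or NC IP replicate 3 (1.48, 0.05), and in DESeq2 (1.52, 0.24). Without NC IN replicate 1 it was 3.64. RAB13 rose from 2462 to 3330.4 CPM in NC IP to 4784 to 7095 in KD IP (0.95 ± 0.13, adjusted p = 1.4e-06), ARF6 from 179 to 258 to 376 to 427 (0.87 ± 0.14, adjusted p = 1.3e-05), and AP2S1 from 182 to 208 to 306 to 346 (0.72 ± 0.13, adjusted p = 8.6e-05). ARF6 differed in IP, while in input its value of 0.36 ± 0.17 missed the threshold (adjusted p = 0.089). RAB11FIP5 rose from 3.18, 3.74 and 4.41 CPM to 18.7, 11.9 and 12.4 (1.91 ± 0.48, adjusted p = 0.0024).

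VPS26C, a subunit of the retriever recycling complex, was 50.4, 61 and 56.6 CPM in NC IP and 82.7, 88.1 and 81.3 in KD IP (0.59 ± 0.2, SE, adjusted p = 0.023). The call was lost without KD IP replicate 1 (0.6, 0.053), KD IP replicate 2 (0.55, 0.079), NC IP replicate 1 (0.51, 0.1) or NC IP replicate 3 (0.59, 0.059). RAB12, a RAB of endosomes and lysosomes, held 13.3, 8.09 and 15.7 against 25.6, 30.4 and 27.9 CPM (1.17 ± 0.43, adjusted p = 0.031), and kept the call without NC IP replicate 3 alone among the 6 IP libraries, at 0.95 to 1.23 without the others. STX4 at 0.38 ± 0.12 (adjusted p = 0.015) lost the call without KD IP replicate 1 (0.32, 0.078) or NC IP replicate 3 (0.36, 0.053). STX10 at 0.37 ± 0.15 (adjusted p = 0.049) lost the call without any 1 of the 12 libraries (0.29 to 0.42, 0.06 to 0.19). The longer RAB5C region had 0.6 ± 0.22 (adjusted p = 0.033), lost without replicate 1 or 2 of KD IP (0.49 and 0.62) or replicate 1 or 3 of NC IP (0.62 and 0.49). VAMP2 fell from 43.5, 29.3 and 28.9 CPM to 6.4, 11.5 and 8.07 (-1.96 ± 0.4, adjusted p = 0.00034). A region of AP2B1 at the start of the gene fell from 45.1, 43.6 and 49.1 to 25.6, 21.9 and 19.2 CPM (-1.04 ± 0.26, adjusted p = 0.0025).

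The third question, the one the knockdown design turns on, was whether the antibody enrichment itself changed. No member (0 of 80) passed in edgeR, and neither did any of the 5113 regions, a background of 0%. At an unadjusted p under 0.05 there were 10 members, against 11.9% (610) of all regions. DESeq2 called 1 member, TRAPPC2L, of 21 regions in all. Without a filter edgeR called 2, TRAPPC2L and AP1S2, of 45 in all. The members' median was 0.01 and that of all regions 0.08. The authors' deposited table called 4 members in its own test of this change, AP1S2, STX7, STX3 and TRAPPC2L, of 78 regions in all.

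The member of smallest p was TRAPPC2L, a subunit of the TRAPP tethering complexes, at chr16:88859645-88860027 (+). It held 11.5, 16.4 and 12.7 CPM in NC IN, 18, 13.7 and 6.29 in NC IP, 31.5, 26.8 and 26.1 in KD IN and 5.33, 1.99 and 3.1 in KD IP. IP and input overlapped in NC and stood far apart in KD. The log2 IP over input was -0.08 ± 0.49 (SE, adjusted p = 0.91) in NC and -2.99 ± 0.52 (adjusted p = 5.1e-05) in KD. The change was -2.91 ± 0.72 (adjusted p = 0.13 in edgeR, 0.029 in DESeq2). Between KD and NC it was -1.85 ± 0.53 in IP (adjusted p = 0.0065), lost without NC IP replicate 1 (-1.5, 0.059), and 1.06 ± 0.49 in input (adjusted p = 0.087).

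The syntaxins STX3 and STX7, also among the smallest p, had higher input in KD. STX3 held 1.59, 8.09 and 3.15 CPM in NC IP and 2.13, 4.48 and 0.621 in KD IP, and its change was -4.84 ± 1.34 (SE, adjusted p = 0.15). STX7 held 6.9, 4.36 and 10.1 CPM in NC IP and 6.4, 3.49 and 4.97 in KD IP, with a change of -2.42 ± 0.92 (adjusted p = 0.31). In both, the IP libraries of the groups overlapped and the input libraries were those that differed. AP1S2 at 2.32 ± 0.88 (adjusted p = 0.31), the short RAB5C region at -3.38 ± 1.33 (adjusted p = 0.33) and RAB3GAP1 at 0.47 ± 0.19 (adjusted p = 0.35) missed the threshold too.

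The wider traffic machinery, 345 genes in 8 lists that the rule leaves out, had 284 regions in 153 genes, and 139 of these regions were tested. In NC 27 were higher in IP and 30 lower, and in KD 29 and 27. Over all regions 22.7% were higher and 24% lower in NC, and 23.5% and 21.4% in KD. Between KD and NC 30 of the 139 were higher and 16 lower in input, and 30 and 13 in IP. The shares over all regions were 17.9% and 21.9% in input, and 20.9% and 20.1% in IP. None (0) of the 139 changed in enrichment, against a background of 0%. The ARF regulators and ARL GTPases had 10 of 20 tested regions higher in KD input and 1 lower, and 8 higher and none (0) lower in IP, where 17.9% of all regions were higher in input and 20.9% in IP. The macrophage and HEK293-like marker sums given above move with the same contrast, and their part was not tested. Of the list, CYTH4, an ARF exchange factor of blood cells, rose from 165 ± 12.5 (SD, n = 3) to 335 ± 31.4 CPM in input (1.02 ± 0.15, SE, adjusted p = 3.7e-06). CYTH2, of the same family, rose from 236 ± 21.3 to 351 ± 24.4 (0.57 ± 0.13, adjusted p = 0.0008). The RAB regulators had 10 of 33 higher and 3 lower in NC IP over input, and 8 and 1 in KD, with TBC1D10B, a RAB GTPase-activating protein, at 0.5 ± 0.11 in KD (adjusted p = 0.0008). Other SNAREs and fusion factors had 2 of 8 higher and 3 lower in NC, with STXBP2, a syntaxin-binding protein of granule release, at -1.82 ± 0.18 (adjusted p = 1.6e-08); this region overlaps PET100. Of the clathrin and endocytosis list, 6 of 25 were higher and 6 lower in KD input, with HIP1R, an actin-binding clathrin partner, at -1.69 ± 0.19 (adjusted p = 8.8e-08). Tethers and retrograde factors had 3 of 29 higher and 10 lower in NC IP over input, and ESCRT genes 3 of 11 and 4. Of the COPII list 1 of 3 was higher in NC and none (0) lower, and of the phosphoinositide enzymes 2 of 12 and none (0). For NC IP over input, 22.7% of all regions were higher and 24% lower. The counts of each list are to be read beside these shares and the others given above.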

How the data were processed

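Counts are those in the single table the authors deposited, whole reads per peak and library without normalization. Per the submitters' processing notes, fastp 0.23.4 and the GRCh38 build were used; the aligner, peak caller, counter and any use of strand are not given in the sources used here. The authors also give each peak a fold enrichment, a ratio whose derivation is not given in the sources used here, a score equal to it for every peak, p-values and a log2 change. Regions were named by overlap with RefSeq gene bodies (GRCh38.p14); exons were not used.

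All regions were fitted with edgeR 4.0.16 (R 4.3.3; filterByExpr, minimum count 10 and total 15; TMM; 4 group means, 8 residual degrees of freedom; quasi-likelihood F test, two-sided, Benjamini-Hochberg over 5113 regions, threshold 0.05), after tests on simulated data. CPM uses TMM-scaled totals of tested regions. With 1 to 3 reads in a group, the ratio has an exact 95% interval, which covers counting error only. Place in the gene uses the gene's strand where known and otherwise the peak's. Genes were named by size among calls whose libraries did not overlap (up to 8 each way per comparison), by mean level in each family, and by the 6 smallest p where fewer than 4 passed; other calls, and weak ones, were named after their values were seen. The members, lists and tests were chosen with earlier results of these data known.

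Alternatives were each library left out, a replicate block, DESeq2 1.42.0, scaling by library size, testing with no filter or from 50 reads upward, regions in 1 coding gene, 1 region per gene and, chosen after seeing the data, regions on the strand of the gene. Replicate numbers were not used as pairs in the main fit. Over all tested regions, deviations of same-numbered libraries correlated at -0.0877 to 0.0677. Counting error lowers such correlations, so they cannot settle whether the numbers pair the libraries.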

Additional observations from a re-analysis of the deposited data

How the results depend on the processing

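The counts of member regions called stayed within 1.5 times the main count, except as follows. With 1 region per gene, IP over input gave 18 calls in NC and 20 in KD, since fewer regions were counted; without a filter, KD over NC in input gave 34. The change in enrichment gave 1 call in DESeq2 and 2 without a filter, against 0. Leaving out each library gave 23 to 34 calls for IP over input in NC, 23 to 36 in KD, 19 to 26 for KD over NC in input, 13 to 27 in IP and 0 to 0 for the change. Fewer members shared a peak with the other set at 50% overlap (30.8%) or in the upper part of each set by the authors' fold (22.4%). A replicate block gave 28, 31, 17, 19 and 0 calls in the 5 comparisons, in the order used here. RAB7A IP over input was called with the block in NC (-0.51, adjusted p = 7.1e-06) and KD (-0.32, 0.0022), and not in the main fit. Its IP and input CPM ranked alike by replicate number in both groups. Whether the numbers pair the libraries is not known. Among 92 values of named regions, 1453 alternatives kept direction and call, 54 lost the call, 18 gained it and 21 turned sign, in 5 values close to 0, none called. For IP over input, VAMP2 in KD was -0.0083 with at least 50 reads, -0.26, -0.22 and -0.00087 without KD IN 1, KD IP 2 and NC IN 2, and at most 0.23 without another library. VPS26C in NC was 0.18 with library size alone, 0.05 with no filter, and -0.19 to 0.12 with a library left out. TRAPPC2L in NC was 0.23 with library size alone, 0.09 with no filter, and -0.41 to 0.25 with a library left out. The change of STX4 was -0.04 in DESeq2 and with at least 50 reads, -0.07 with library size alone, -0.0044 with no filter, and -0.15 to 0.11 with a library left out. That of RAB13 was -0.0021 without KD IP 3 and at most 0.28. The cause was not tested. Depth limits 63 of the 143 regions, which were too low to test.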
